A study of Homo sapiens with 4 samples.

Results

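The genes that encode WNT ligands and the receptors that bind them were examined for open chromatin in prostate cancer cells before and after acquired resistance to an androgen receptor inhibitor. The set was chosen by name and held 34 of the 20037 protein-coding genes that RefSeq places on the main chromosomes of GRCh38.p14. It comprised 19 WNT ligands, 10 Frizzled receptors, and the co-receptors and alternative receptors LRP5, LRP6, ROR1, ROR2 and RYK. All 34 were found in the annotation.

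Chromatin accessibility had been profiled by ATAC-seq, an assay that marks exposed DNA through the insertion of adapters by a transposase. The parental group was 2 libraries of LNCaP, a line of androgen-sensitive prostate cancer cells, with the genotype entry WT and no drug listed. The other group was 2 libraries of LNCaP-resistance cells, with the genotype entry resistance cells and enzalutamide, which blocks the androgen receptor, as treatment; they are called resistant here. Both groups were labelled as grown in RPMI-1640 with 10% serum. In the study's methods, resistance was selected in charcoal-stripped serum, which is depleted of steroids, under stepwise doses of enzalutamide. Several sublines were derived in this way. The study's text sets ATAC-seq peaks of LNCaP beside those of its LN-35 subline, while the labels name no subline. Effects of the drug, of the serum and of long selection therefore cannot be told apart. Nothing in the labels states that the libraries of a group came from separate cultures, so the spread between them may be technical.

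WNT proteins are secreted lipid-modified ligands that signal between neighbouring cells. When a WNT binds a Frizzled receptor together with LRP5 or LRP6, β-catenin is spared from degradation and acts with TCF/LEF factors on transcription. When it binds ROR1, ROR2 or RYK, often with a Frizzled, β-catenin-independent branches that control polarity and movement are engaged. In the prostate, WNT signals take part in bud outgrowth and in stromal to epithelial exchange, and both branches have been studied in castration-resistant disease.

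Each library was represented by a list of peak summits, each with a significance score. Summits of a list were ranked by score, and the percentile of a summit is the share of its own list that it equalled or exceeded, so that 100 marks the top. A gene without a summit in the stated window was given percentile 0. Values are given throughout in the order LNCaP R1, LNCaP R2, resistant R1 and resistant R2. The lists held 117245, 107344, 70866 and 45618 summits, so both resistant lists were shorter, and a missing summit can mean closed chromatin or a shallower library. Read counts were not part of these lists, and the depth is unknown. A comparison of 2 libraries with 2 cannot give an exact permutation p below 0.333 (two-sided), so single values are described against the spread and tests across regions are by limma. Of the 8 prostate luminal marker genes checked, 8 had a summit near an end in all 4 libraries, as did 68.2% of all protein-coding genes. The same held for 1 of 3 basal, 1 of 3 leukocyte, 2 of 2 endothelial and 2 of 3 fibroblast markers. Of the luminal markers, KLK3 had the lowest LNCaP percentiles, with 4.79, 3.46, 82.7 and 60.6. Since the cells were measured in bulk, fewer cells with a site open and weaker opening in each cell cannot be told apart. A summit near a gene end does not by itself show that the gene is transcribed.

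The promoter sequences below show the DNA at annotated starts of genes described in the results. For 25 of the 34 genes RefSeq promoters were at hand, 28 in all because WNT2B, WNT5A and WNT5B have a pair each. The first 5 belong to genes whose accessibility near an end separated the groups and that had a summit inside the 300 bases around the start. That summit was found in resistant R1 alone at WNT5A, WNT3, WNT6 and WNT2B, and in 3 libraries at WNT1. At WNT2B every library had a summit close to this place (72.4, 49.3, 65.5 and 47.1), but those of the other libraries lay just upstream of these bases. At WNT1 the strongest resistant summits lay downstream of the start, outside these bases. FZD9 was added after its values were seen. At the starts of WNT5A, WNT3 and WNT2B themselves the groups overlapped. At WNT5A and WNT3 the strongest LNCaP summits near gene ends lay elsewhere. At WNT2B only that of LNCaP R2 lay at the 3′ end, and those of the other libraries lay within 1 kb of the start. Each line gives the 250 bases upstream of the start, 5′ to 3′ on the gene's own strand, from RefSeq GRCh38.p14. Capitals mark GC boxes (GGGCGG or its complement CCGCCC), the elements that Sp-family factors bind.
WNT5A, chr3:55481399-55481648, minus strand: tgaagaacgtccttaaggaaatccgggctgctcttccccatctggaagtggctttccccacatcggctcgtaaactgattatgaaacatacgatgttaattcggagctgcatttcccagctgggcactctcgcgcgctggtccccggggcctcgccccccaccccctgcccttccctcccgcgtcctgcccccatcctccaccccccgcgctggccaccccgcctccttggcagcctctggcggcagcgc
WNT3, chr17:46818693-46818942, minus strand: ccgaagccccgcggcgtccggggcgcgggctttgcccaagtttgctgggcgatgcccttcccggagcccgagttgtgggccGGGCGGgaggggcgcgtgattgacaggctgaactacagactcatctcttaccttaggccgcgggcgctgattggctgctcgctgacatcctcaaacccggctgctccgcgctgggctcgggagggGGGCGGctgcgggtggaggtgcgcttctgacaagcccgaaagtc
WNT6, chr2:218859555-218859804, plus strand: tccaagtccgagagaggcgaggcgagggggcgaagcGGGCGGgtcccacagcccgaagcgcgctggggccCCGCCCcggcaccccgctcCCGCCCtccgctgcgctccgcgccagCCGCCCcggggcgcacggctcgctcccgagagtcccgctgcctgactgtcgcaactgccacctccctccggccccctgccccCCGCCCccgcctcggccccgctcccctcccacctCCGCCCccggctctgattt
WNT1, chr12:48978072-48978321, plus strand: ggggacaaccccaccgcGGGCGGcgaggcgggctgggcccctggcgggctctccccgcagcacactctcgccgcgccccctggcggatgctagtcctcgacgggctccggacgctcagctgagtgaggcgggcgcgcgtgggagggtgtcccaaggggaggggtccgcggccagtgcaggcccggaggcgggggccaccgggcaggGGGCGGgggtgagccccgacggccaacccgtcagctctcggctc
WNT2B, chr1:112466291-112466540, plus strand: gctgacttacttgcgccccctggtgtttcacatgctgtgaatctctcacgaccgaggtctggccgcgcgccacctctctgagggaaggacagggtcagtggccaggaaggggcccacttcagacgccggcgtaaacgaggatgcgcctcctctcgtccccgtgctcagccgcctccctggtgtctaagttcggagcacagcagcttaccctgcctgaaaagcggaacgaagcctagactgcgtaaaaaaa
FZD9, chr7:73433528-73433777, plus strand: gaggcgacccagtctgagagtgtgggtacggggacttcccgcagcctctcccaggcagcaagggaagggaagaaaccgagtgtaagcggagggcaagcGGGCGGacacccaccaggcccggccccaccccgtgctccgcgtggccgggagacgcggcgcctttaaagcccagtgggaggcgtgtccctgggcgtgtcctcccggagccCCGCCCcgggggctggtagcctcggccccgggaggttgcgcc

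The stretch upstream of WNT6 held 6 GC boxes, those of WNT3, WNT1 and FZD9 held 2 each, and those of WNT5A and WNT2B held none. Over the 300 bases that run from 250 before to 50 after the start, 22 of the 28 promoters (78.6%) held a GC box on either strand, against 56.3% of 22199 protein-coding promoters. Their median GC content was 73.3%, against 62.3%. The TCF/LEF core CTTTGA was found in 0 of the 28 (10.9% of all promoters) and the AP-1 site TGANTCA in 0 (6.15% of all). The androgen receptor half-site AGAACA was found in 2 (11.7% of all) and the forkhead core TGTTTAC in 1 (2.85% of all). In the 6 promoters shown, no matches of different motifs overlapped. These are matches of letters in a short window and say nothing about whether a factor binds there.

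The windows of the 34 genes, each the gene body with 20 kb on either side, held 204, 188, 158 and 101 summits. With 250 bp added on both sides of a summit, merging the overlapping windows of the libraries gave 281 regions, of which 16 fell in the windows of more than 1 of the genes. Among them 65 were present in all 4 libraries (23.1%, against 21.1% of 150917 regions genome-wide). Another 65 were present in both LNCaP libraries and no resistant one (23.1%, against 27.5%), and 17 in both resistant libraries and no LNCaP one (6.05%, against 3.84%). The remaining 134 showed other patterns. By role, the ligand windows held 12 resistant-only regions against 26 LNCaP-only (8.45% and 18.3% of 142). The Frizzled windows held 2 against 12 (4.08% and 24.5% of 49). The windows of LRP5, LRP6, ROR1, ROR2 and RYK held 3 against 27 (3.33% and 30.0% of 90). The genome-wide shares were 3.84% and 27.5%. When every list was cut to the same number of summits, resistant-only regions numbered 36 (14.9% genome-wide) and LNCaP-only regions 26 (17.1%). Without LNCaP R2 the LNCaP-only count was 99 (46.9% genome-wide), and without resistant R2 the resistant-only count was 50 (12.0%).

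**Figure D1:**
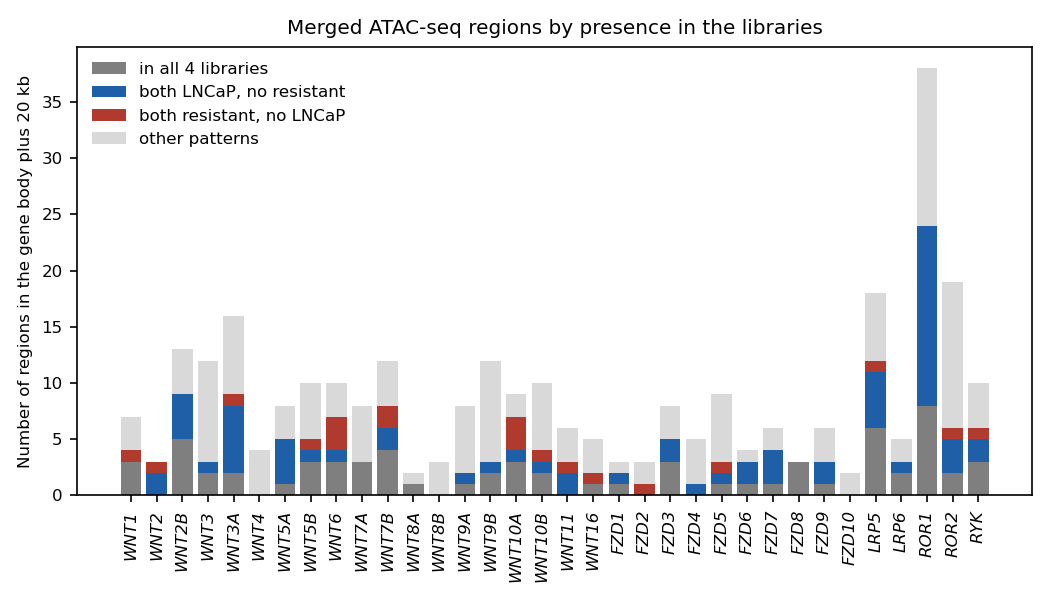
Number of merged ATAC-seq regions (vertical axis) in the gene body plus 20 kb of each of the 34 genes (horizontal axis), stacked by presence in the 2 LNCaP and 2 resistant libraries. ROR1 had the tallest column, with 38 regions of which 16 were LNCaP-only and 0 resistant-only. Genome-wide, 27.5% and 3.84% of regions fell in these classes.

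Together, the windows of the genes took 0.174% and 0.175% of the LNCaP lists and 0.223% and 0.222% of the resistant lists. The same sum over the windows of all genes was not taken. As a share of the list, 17 of the 34 genes held more in both resistant libraries, near the 43.3% of all protein-coding genes that did. By the same measure 2 held fewer (18.1%). In plain numbers 15 held fewer (49.8%) and 3 held more (2.33%), namely WNT6, WNT10A and FZD2. The windows of WNT6 and WNT10A overlap, so many of the same summits were counted for both. Of the summits in these windows, 37.7%, 43.1%, 46.8% and 54.5% lay within 3 kb of an annotated gene end, a mean of 40.4% ± 3.78 in LNCaP and 50.6% ± 5.39 in resistant cells (SD, n = 2). The difference was 10.2 points, and over all summits, with means of 30.9% and 43.8%, it was 12.8 points. Without resistant R2, 11 genes held more summits in number (11.6% of all genes) and 7 held fewer as a share (28.1%). Without resistant R1, 25 held fewer in number (70.9%) and 9 fewer as a share (26.3%).

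For each gene the strongest summit within 3 kb of either end was then compared. Both resistant libraries exceeded both LNCaP libraries at 7 genes (20% of protein-coding genes did so), and the reverse was seen at 13 (23.9%). At the other 14 the groups overlapped. The median difference, resistant minus LNCaP, was -0.97 percentile points over the 34 genes and 0 over all protein-coding genes. By role, 5 ligands were higher, 8 lower and 6 overlapping. Of the Frizzled genes 2 were higher, 1 lower and 7 overlapping, and of the 5 others 0 were higher, 4 lower and 1 overlapping. Trimming the lists to one length turned the balance, to 18 higher and 5 lower, as it did genome-wide (47.6% and 6.72%). Without resistant R2 there were 12 higher (37.6% genome-wide), and without LNCaP R1 11 (30.0%).

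**Figure D2:**
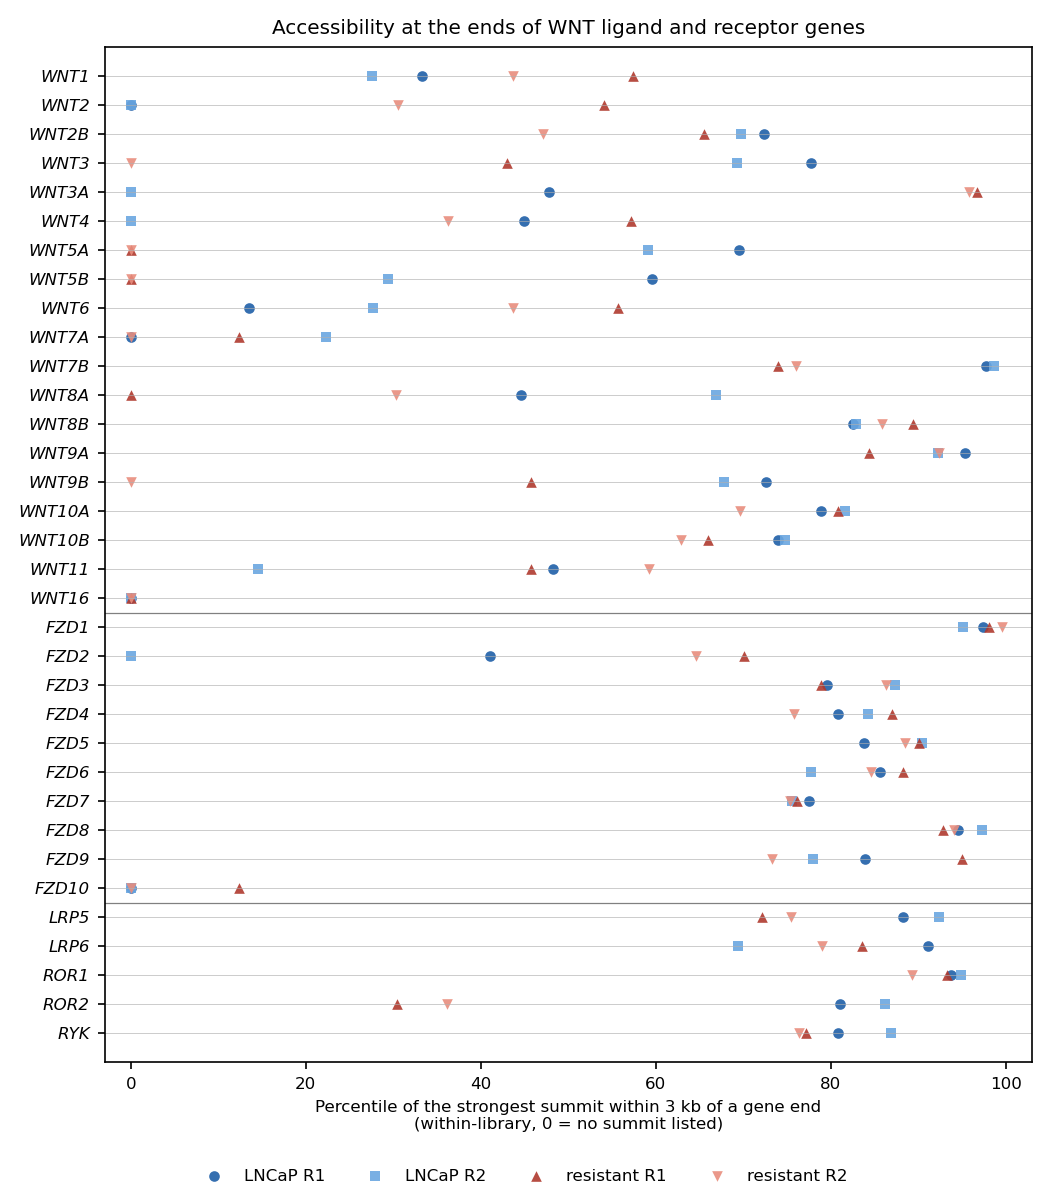
Within-library percentile (horizontal axis, 0 where no summit was listed) of the strongest summit within 3 kb of either end of each gene (vertical axis), 1 point per library. The resistant libraries stand to the right of both LNCaP libraries at 7 genes, such as WNT3A (72.4 points), and to the left at 13, such as WNT5A (-64.3 points).

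WNT3A, which activates β-catenin signalling in many tissues, was higher in resistant cells near an end. Its percentiles were 47.8, 0, 96.7 and 95.8, a mean of 23.9 ± 33.8 in LNCaP and 96.2 ± 0.667 in resistant cells (SD, n = 2). The difference of 72.4 points exceeded the pooled SD of 23.9, was 48.5 without LNCaP R2 and was 17.6 within 1 kb of an end. The summits involved sat in chr1:228059400-228059908, inside the gene and 1615 bp from its higher-coordinate end, which is its 3′ end. A further shared region 3526 bp downstream of the WNT3A start rose from 56.5 and 55.8 to 86.5 and 79.5. On the normal-score scale it was higher by 1.35 ± 0.271 (SE) with an adjusted p of 0.00835 (limma, Benjamini-Hochberg over 31833 shared regions), a call lost without LNCaP R1 (adjusted p = 0.0503). The WNT3A start itself carried weak summits in the resistant cells alone, at 30.2 and 5.02. The whole WNT3A window held 14, 8, 6 and 4 summits in 16 regions. Of these 6 were LNCaP-only and 1 resistant-only (27.5% and 3.84% of regions genome-wide). The strongest LNCaP-only region, 10669 bp upstream of the start, had 71.4 and 81.2.

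FZD2, WNT2, WNT6 and WNT1 followed in size. FZD2, a receptor used in both branches of the pathway, had percentiles of 41.1, 0, 70.0 and 64.6, all from 1 region 309 bp outside its lower-coordinate end. WNT2 had 0 and 0 in LNCaP and 54.0 and 30.6 in resistant cells, from summits 1251 bp upstream of its start. Its 2 LNCaP-only regions lay elsewhere, the stronger 4958 bp from its 3′ end with 71.2 and 67.4. WNT2 thus had no region in common between the groups. WNT6 had 13.5, 27.7, 55.7 and 43.6, and the summits were not the same ones. In LNCaP the summit lay 2685 bp beyond the 3′ end of WNT6. In resistant cells it lay 315 bp outside the lower-coordinate end of its neighbour WNT10A, which runs on the same strand, and also inside the last part of WNT6. Accessibility there cannot be assigned to 1 of these neighbouring ligand genes.

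WNT1, the founding member of the family, had percentiles of 33.3, 27.6, 57.4 and 43.7. The mean was 30.4 ± 4.04 in LNCaP and 50.5 ± 9.69 in resistant cells (SD, n = 2). Relative to the start, these strongest summits sat at -163 and -182 bp in LNCaP and at 319 and 294 bp in resistant cells. Near the LNCaP place, within the 300 bases around the start, resistant R1 had 17.0 at -190 bp and resistant R2 had no summit. All lay within 1 merged region, which was called higher from summits at these different places (0.94 ± 0.273 SE, adjusted p = 0.0368, limma). That call was lost whenever any 1 of the 4 libraries was left out. At WNT8B the difference was 4.86 points, with 82.6 and 82.9 against 89.3 and 85.9. At FZD1 it was 2.60 points, with 97.3 and 95.1 against 98.1 and 99.6, so the FZD1 start was among the strongest summits of every list.

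WNT5A, the prototype ligand of the β-catenin-independent branch, was lower in resistant cells near an end. Its percentiles were 69.6 and 59.1 in LNCaP and 0 in both resistant libraries, a mean of 64.3 ± 7.41 against no summit (SD, n = 2). The difference of -64.3 points was -32.2 with scores of at least 10, -12.7 with lists of equal length and -7.96 within 1 kb of an end. The LNCaP summits lay in chr3:55502887-55503775, 1751 bp inside the higher-coordinate end of the gene, which is at -16206 bp relative to the nearer start of the promoter table. A weaker LNCaP-only region with 2.37 and 13.6 covered that end itself. Another, 15995 bp beyond the 3′ end, reached 91.7 and 90.6. The gene was not closed in resistant cells. A region 2026 bp inside the start had 51.4, 55.5, 57.4 and 43.2, and within 1 kb of a start the values were 67.5, 0, 51.6 and 30.4.

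The other genes lower by at least 10 points were WNT3, ROR2, WNT9B, WNT5B, WNT8A, WNT7B, LRP5 and WNT2B. WNT3, a β-catenin ligand, had 77.8 and 69.3 in LNCaP from a region 2607 bp inside its 3′ end, against 42.9 and 0. The resistant R1 summit was a different one, 139 bp upstream of the start, where no LNCaP library had any. WNT9B, which induces kidney tubules in development, had 72.7, 67.8, 45.7 and 0, and WNT8A had 44.6, 66.9, 0 and 30.3. WNT5B, close in sequence to WNT5A, had 59.6 and 29.4 against none, from a region 2474 bp inside its 3′ end. At WNT5B the nearer start went the other way, with no LNCaP summit within 1 kb and resistant values of 33.5 and 11.1. Without resistant R2 the difference was -30.6 at WNT3 (-52.0 with it) and -24.5 at WNT9B (-47.4 with it). With equal numbers of summits WNT8A and WNT2B changed sign, and WNT5B had a difference of 0.

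WNT7B, a ligand of epithelial cells, had percentiles of 97.7, 98.7, 73.9 and 76.1. The LNCaP summits lay in chr22:45919438-45919948, 673 bp outside the lower-coordinate end, where the values were 97.7, 98.7, 73.9 and 64.6, and the stronger resistant R2 summit was at the other end. The region was called lower (-1.56 ± 0.279 SE, adjusted p = 0.00521, limma) and stayed called without each library in turn. A region 8303 bp beyond the same end went the other way (38.0, 21.4, 68.9 and 60.0, with 1.39 ± 0.280 SE and adjusted p = 0.00853 by limma), a call lost without LNCaP R2 (adjusted p = 0.0847). At the higher-coordinate end a resistant-only region 961 bp outside had 45.3 and 39.2, and a LNCaP-only region 1765 bp inside had 73.1 and 44.0. Inside the gene, 14396 bp from the lower end, a resistant-only region had 93.5 and 89.6. This was the strongest resistant-only region away from the ends of the genes.

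WNT2B, WNT10B and WNT11 showed smaller or mixed values. WNT2B had 72.4, 69.7, 65.5 and 47.1 near its ends, with a pair of LNCaP-only regions at the 3′ end, 699 bp inside it (69.9 and 49.3) and 295 bp beyond it (56.7 and 69.7). WNT10B had 74.0, 74.8, 66.0 and 62.9. WNT11, a ligand that acts in cell movement, had 48.3, 14.5, 45.7 and 59.3, and the groups used different places. The LNCaP summits sat 143 bp inside the higher-coordinate end and the resistant ones 1707 bp inside it. The ligands WNT4, WNT7A, WNT9A and WNT10A overlapped as well. WNT16 had no summit within 3 kb of an end in any library.

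Of the Frizzled genes, FZD3, FZD4, FZD5, FZD6 and FZD7 had percentiles between 75.4 and 90.4 in every library, and their groups overlapped. At FZD7 the groups used different places. The strongest LNCaP summits lay in a region 969 bp inside the lower-coordinate end, with 77.5 and 75.6. There resistant R1 had no summit and resistant R2 had one of lower percentile. The strongest resistant summits lay in a shared region 179 bp outside that end, with 58.9, 65.8, 76.2 and 75.4. That region was not called (adjusted p = 0.0703, limma). FZD8 was high throughout, with 94.6, 97.3, 92.9 and 94.0, a difference of -2.47 points. FZD10 had a single weak summit, at 12.4 in resistant R1. FZD9 overlapped near its ends, with 83.9, 78.0, 95.0 and 73.3, because the groups used opposite ends. In LNCaP the strongest summits lay in a region 279 bp beyond the 3′ end (83.9 and 78.0) that no resistant library had. In resistant cells they lay at the start.

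At the FZD9 start, chr7:73433479-73433988, all 4 libraries had a summit, with percentiles of 25.1, 49.3, 95.0 and 73.3. It was the 1 shared region called at a Frizzled gene. On the normal-score scale it was 2.12 ± 0.387 (SE), with an adjusted p of 0.00567 (limma), and it stayed called without each library in turn. The summits lay at -40, -49, -45 and -47 bp relative to the start, inside the FZD9 sequence printed above. A further LNCaP-only region 2555 bp upstream had 38.0 and 48.1.

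The receptors outside the Frizzled family included none that was higher near an end. LRP5, which pairs with Frizzled receptors for β-catenin signalling, had 88.2, 92.4, 72.1 and 75.4, a mean of 90.3 ± 2.94 against 73.8 ± 2.35 (SD, n = 2). The difference was -16.6 points, or -9.88 with lists of equal length. The summits lay outside the lower-coordinate end, at -14673 bp relative to the start in the promoter table, and within 1 kb of that start the values were 0, 20.4, 40.3 and 17.7. ROR2, a tyrosine-kinase-like receptor for WNT5A, had 81.1, 86.2, 30.5 and 36.2, a mean of 83.6 ± 3.65 against 33.3 ± 4.03. The difference of -50.3 points exceeded the pooled SD of 3.85. The ROR2 summits sat in chr9:91948420-91949172, 1327 bp inside the gene from its start, and the region was called lower (-1.38 ± 0.337 SE, adjusted p = 0.0188, limma). Within 1 kb of an end only resistant R1 had a summit, at 30.0. That call was lost without LNCaP R2 (adjusted p = 0.095) and without resistant R1 (adjusted p = 0.102).

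ROR1 and RYK showed small differences at their starts. ROR1, the paralog of ROR2, had 93.8, 94.9, 93.3 and 89.3, a difference of -3.03 points. RYK, which binds WNT through its WIF domain, had 80.8, 86.8, 77.2 and 76.4, a difference of -7.02. LRP6 overlapped, with 91.1, 69.4, 83.6 and 79.0. The strongest summits at the ends of these 3 genes thus ranked in the upper part of every list.

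Because an end of a gene may be its 3′ end, the annotated starts were also taken alone, within 1 kb, for the 25 genes in the promoter table. This window was chosen after the data were seen. Both resistant libraries exceeded both LNCaP libraries at 8 genes (21.9% of protein-coding genes) and the reverse was seen at 3 (16.3%). The 8 were WNT1, WNT3A, WNT5B, WNT6, WNT9B, WNT16, FZD1 and FZD9, and the 3 were FZD8, ROR1 and RYK. The median difference was 15.0 points, against 0 over all genes. This median was the value of ROR2, where only resistant R1 had a summit, at 30.0. Within 3 kb of a start the median was 2.22. Among the 16 ligands with a promoter, 6, 4, 11 and 9 had a summit there in the 4 libraries. Over all protein-coding genes the shares were 69.5%, 68.5%, 72.4% and 68.7%. The contrast between ligands and all genes was not tested.

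WNT3A, WNT5B and WNT6 had no start summit in LNCaP and one in both resistant libraries, 3 of the 25 genes (12%), against 2.87% of all genes. Their resistant percentiles were low, at most 33.5, so these were weak summits. WNT9B had 28.6, 0, 49.7 and 58.0 at its start, opposite to its difference near the gene ends as a whole. WNT16, which acts in bone, had 0.0648, 0, 44.6 and 19.0. WNT2, WNT8A, WNT8B and WNT10A had no summit at a start in any library. With equal numbers of summits 12 genes were higher and 0 lower (47.5% and 4.19% genome-wide), and with scores of at least 10 only, 3 and 2 (20.2% and 10.4%). The number higher was 14 without resistant R2 (39.3% genome-wide), and the number lower was 5 without LNCaP R1 (22.9%), LNCaP R2 (26.6%) or resistant R1 (31.5%). Within 3 kb of a start, 6 were higher (21.5%) and 4 lower (20.4%).

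**Figure D3:**
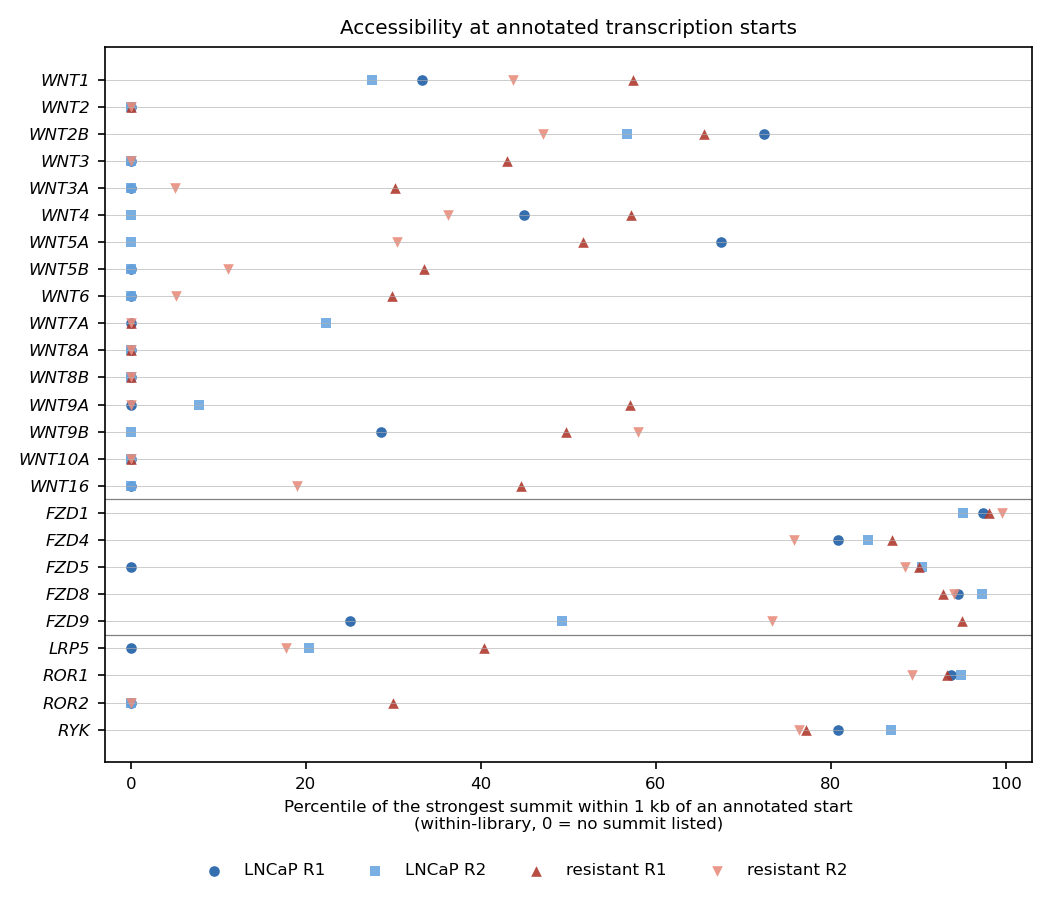
Within-library percentile (horizontal axis, 0 where no summit was listed) of the strongest summit within 1 kb of an annotated start for the 25 genes with a RefSeq promoter (vertical axis), 1 point per library. WNT3A, WNT5B and WNT6 show resistant points alone, and FZD9 rises from 25.1 and 49.3 to 95.0 and 73.3.

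The 65 regions present in all 4 libraries allowed a test, since each had a rank in every list. Ranks among the 31833 shared regions were turned into normal scores and fitted with limma. Of the 65, 5 were called higher in resistant cells (10.1% of shared regions were) and 9 lower (12.2%), and 51 were not called. The median difference was 0.00370 on the normal-score scale, against 0.0722 over all shared regions. The ligand windows had 4 higher and 4 lower of 33, the Frizzled windows 1 higher and 0 lower of 11, and the windows of the other receptors 0 higher and 5 lower of 21. At an unadjusted p under 0.05 in limma, the ligand windows had 7 higher and 5 lower, the Frizzled windows 3 and 0, and the other receptors 0 and 8, beside 11826 of the 31833 shared regions in either direction. The count called lower was 5 without LNCaP R1 (6.85% of shared regions), 4 without LNCaP R2 (6.16%) and 4 without resistant R1 (10.2%), and the count called higher was 3 without LNCaP R1 (5.65%).

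**Figure D4:**
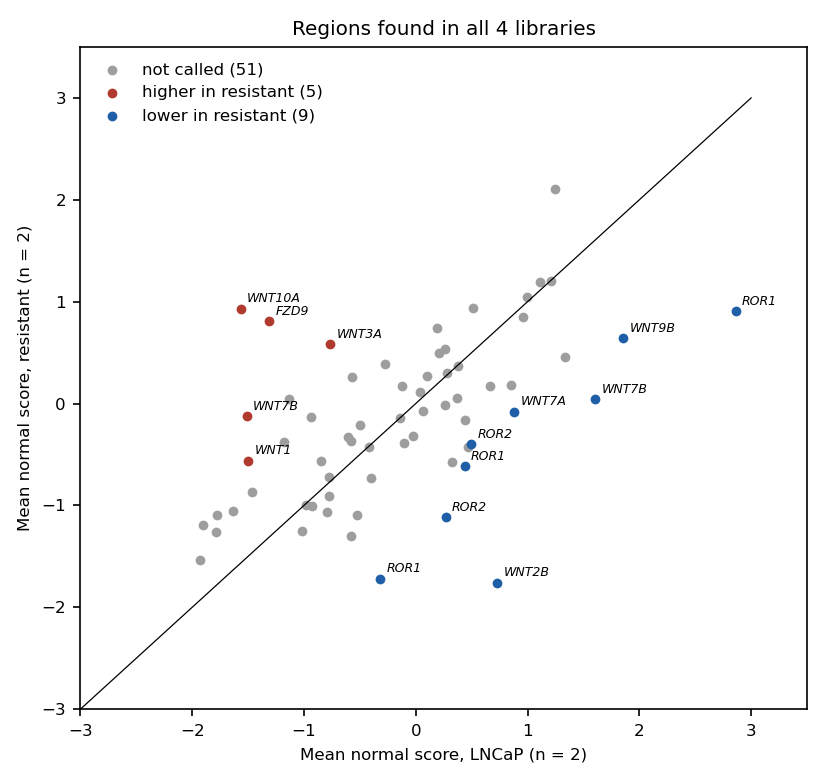
Mean normal score of the rank in LNCaP (horizontal axis, n = 2) and in resistant cells (vertical axis, n = 2) for the 65 regions present in all 4 libraries, with the line of equality. The 5 regions called higher lie above the line and the 9 called lower below it, each named by its gene, with 3 of the latter at ROR1.

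The largest fall among them was distal to WNT2B, a β-catenin ligand. The region chr1:112449466-112450057, at -16744 bp relative to the WNT2B start and 11367 bp from CTTNBP2NL, had percentiles of 94.0, 87.7, 25.5 and 9.58 (-2.49 ± 0.287 SE, adjusted p = 0.00108, limma). The largest rise lay 15157 bp beyond the 3′ end of WNT10A, a ligand of tooth and skin development. There chr2:218908822-218909344 had 47.8, 13.6, 89.4 and 90.4 (2.50 ± 0.346 SE, adjusted p = 0.00190, limma). Both stayed called without each library in turn. WNT9B had a fall 10115 bp inside its 3′ end (99.1, 98.8, 90.6 and 75.3; -1.22 ± 0.285 SE, adjusted p = 0.0161), and WNT7A one 5540 bp upstream of its start (90.9, 95.0, 70.3 and 60.9; -0.96 ± 0.289 SE, adjusted p = 0.0408). The WNT9B call was lost without LNCaP R1, LNCaP R2 or resistant R2, and the WNT7A call was lost without any 1 of the 4 libraries.

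ROR1, ROR2 and LRP5 had the most summits in their windows. ROR1 spans 407 kb on chromosome 1 and had 35, 29, 10 and 9 summits in 38 regions. Of these 8 were shared, 16 LNCaP-only and 0 resistant-only. The start was kept, and many intragenic regions were listed in LNCaP alone. Over all regions away from gene ends, 31.5% were LNCaP-only and 3.29% resistant-only. Shared regions made up 35.2% of all regions near gene ends and 15.1% of those elsewhere. The direction was therefore not particular to ROR1. The strongest LNCaP-only region of the gene lay 14061 bp inside it, with 93.0 and 94.7, and others at 73449 bp and 127881 bp had 88.7 and 86.3, and 89.6 and 87.8.

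Among the shared ROR1 regions the strongest was 154868 bp inside the gene, chr1:63928631-63929151, with 99.9, 99.9, 89.2 and 89.8. It was near the top of both LNCaP lists and was called lower (-1.96 ± 0.281 SE, adjusted p = 0.00215, limma), with and without each library. A region 363279 bp inside had 79.0, 58.6, 16.8 and 16.6 (-1.40 ± 0.335 SE, adjusted p = 0.0176), and one 232898 bp inside had 81.0, 91.5, 61.2 and 36.2 (-1.05 ± 0.314 SE, adjusted p = 0.0400). When 1 library was left out, the region at 363279 bp was called without LNCaP R2 alone, and the region at 232898 bp without LNCaP R1 alone.

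ROR2 had 13, 11, 11 and 3 summits in 19 regions, of which 2 were shared, 3 LNCaP-only and 1 resistant-only. Its other shared region, 111836 bp inside the gene from the start, had 87.2, 88.6, 64.5 and 46.0 (-0.90 ± 0.271 SE, adjusted p = 0.0419, limma). That call was lost without any 1 of the 4 libraries and with replicate number as a block (adjusted p = 0.0525). LRP5 had 13, 15, 11 and 9 summits in 18 regions, 6 shared, 5 LNCaP-only and 1 resistant-only. A run of 4 LNCaP-only regions between 44501 and 82076 bp inside LRP5 had percentiles from 81.1 to 98.3, while its resistant-only region had 13.3 and 4.58. The region at 82076 bp, with 95.8 and 98.3, was the strongest LNCaP-only region away from gene ends.

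**Figure D5:**
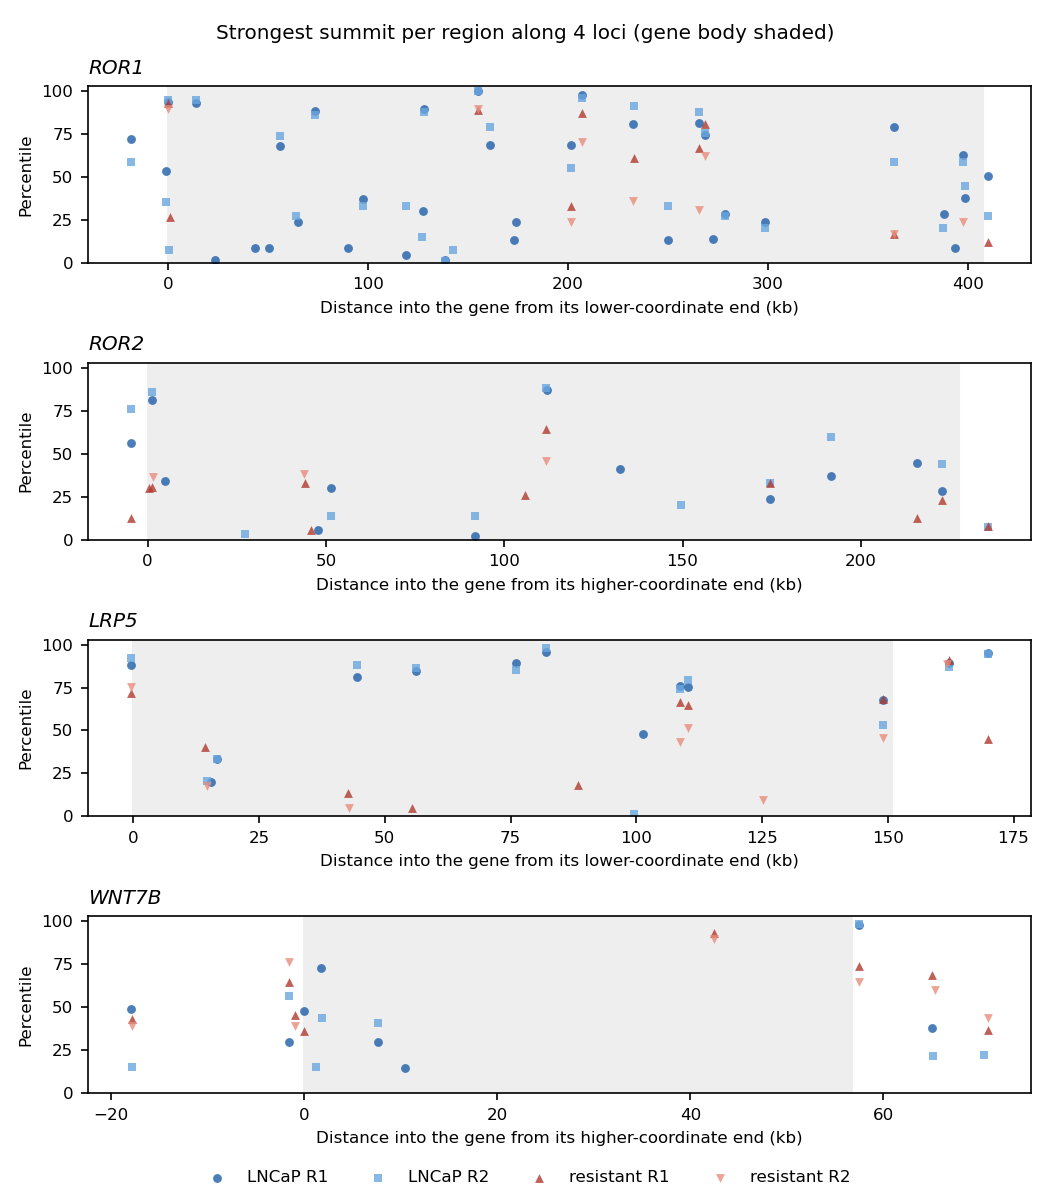
Percentile (vertical axes) of the strongest summit of each region along ROR1, ROR2, LRP5 and WNT7B, by distance in kb into the gene from the stated end (horizontal axes, gene body shaded), 1 point per library. LNCaP points fill the body of ROR1 and the middle of LRP5, and in WNT7B a resistant-only pair stands at 93.5 and 89.6.

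In the WNT10B and WNT1 windows, one-group regions also lay at other genes. At ARF3, a LNCaP-only region 69 bp from the gene end had 95.5 and 95.9, and a resistant-only region had 91.8 and 85.0, their summits 916 bp apart. These fall in the WNT10B window but next to ARF3. A resistant-only region in the WNT1 window, 71 bp from an end of DDN, had 76.2 and 57.0. Summits of the other group lay within 1 kb of 4 of the 65 LNCaP-only regions (3.70% of all such regions) and of 3 of the 17 resistant-only regions (11.9%). At these places both groups had a summit within a short distance.

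Other WNT pathway genes were measured in the same way near their ends. Of 16 inhibitors, which act on WNT ligands or their receptors, 5 were higher, 4 lower and 7 overlapping. Of all protein-coding genes, 20% were higher and 23.9% lower. Of 10 agonists and secretion factors, 4 were higher, 1 lower and 5 overlapping. Of 16 cytoplasmic and nuclear transducers, 3 were higher, 4 lower and 9 overlapping, and of 8 planar polarity genes 1 was higher, 3 lower and 4 overlapping. Among the secreted inhibitors, WIF1, which binds WNT directly, had 13.3, 13.6, 81.9 and 69.0, and the WNT carrier WLS had 13.3, 49.7, 75.9 and 58.4. The co-activator BCL9 had 98.3, 94.1, 80.3 and 47.7. These 3 were picked after their values were seen.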

How the data were processed

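ATAC-seq libraries of LNCaP cells (n = 2) and enzalutamide-resistant LNCaP cells (n = 2) were analysed from the summit lists that the authors deposited, 1 per library. Summits were called by the authors on each library separately. The deposited score is on the −log10 scale of a p-value or q-value. Neither the choice between these nor the calling threshold is given in the sources used here. The submitters' processing notes name Bowtie2 2.2.5, SAMtools 1.6, MACS2 2.2.6, deepTools 3.5.2, HOMER 4.11, edgeR 3.22.5 and hg38. The lists hold no counts, so no count test was possible, depth is unknown, and longer lists may reflect deeper libraries.

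Summits on the main chromosomes (48 to 131 per list were elsewhere) were widened by 250 bp and merged into 150917 regions. Genes, starts and promoters came from RefSeq GRCh38.p14. A region was assigned to a group when both of its libraries and none of the other group had a summit in it. Scores were used only as ranks within a list. Normal scores of ranks in regions shared by all 4 libraries were fitted with limma 3.58.1 (R 4.3.3), with 2 residual and 7.49 prior degrees of freedom, and adjusted by Benjamini-Hochberg at 0.05. The computation was tested on simulated lists. Figures were drawn with matplotlib 3.10.9, and tables were handled in Python 3.11.15 with pandas 2.3.3 and, for ranks, scipy 1.17.1 on numpy 2.4.6.

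The labels give each replicate number a batch entry (repeat1 or repeat2). Deviations from the group means of same-numbered libraries correlated with r = -0.0399 over the 31833 shared regions. The fit without a block was the main one.

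The genes, pathway lists and markers were chosen with earlier results of these data known. Values per library are given for genes that separated the groups by at least 10 points (up to 10 in each direction), for one-group regions near an end, for the 3 genes with most summits, for up to 10 regions called by limma and the remaining 4, and for the 3 strongest one-group regions away from the ends. Alternatives were leaving out each library, a replicate block, lists trimmed to equal length, scores from 10 upwards, summit windows of 100 or 500 bp, presence in any 1 library of a group, gene ends within 1 kb, and starts alone. Starts within 1 kb and their alternatives were added after seeing the data.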

Additional observations from a re-analysis of the deposited data

How the results depend on the processing

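With equal numbers of summits the regions were 35 shared, 26 LNCaP-only and 36 resistant-only (26.8%, 17.1% and 14.9% genome-wide). Near gene ends 18 genes were then higher (47.6% genome-wide) and 5 lower (6.72%). The median difference was 17.9 points, against 5.99 over all genes, and 0 genes were lower at a start within 1 kb (4.19%). limma then called 0 regions of 35 higher (8.48% of shared regions) and 4 lower (11.5%). At an unadjusted p under 0.05 in limma the counts were 3 and 9. In number of summits 13 genes held more (24.9% of protein-coding genes) and 4 fewer (15.8%), also 4 fewer as a share (15.8%). With scores of at least 10 the classes were 33, 38 and 7, limma called 1 region higher (3 unadjusted), 1 gene held more summits and 6 a smaller share, 3 genes were higher at a start, and the near-end share differed by 15.4 points. Membership by at least 1 library gave 108, 122 and 51 (35.1%, 52.0% and 12.9% genome-wide). With 100 bp on either side of a summit limma called 3 higher (10.2% of shared regions). With starts alone (3 kb), 4 genes were lower (20.4% genome-wide) and the median difference was 2.22, against 0 over all genes. The cause of these moves was not tested, except that fewer summits enter by construction with equal numbers or a minimum score.

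Leaving out each library in turn gave 71 to 99 LNCaP-only regions (28.6% to 46.9% genome-wide) and 19 to 50 resistant-only regions (5.23% to 12.0%). Near an end 8 to 12 genes were higher (23.8% to 37.6%), with a median difference of -3.20 to 0.30 (positive without resistant R2). limma called 3 to 6 regions higher and 4 to 6 lower. In number of summits 3 to 11 genes held more (2.63% to 11.6% of protein-coding genes) and 15 to 25 fewer (50.8% to 70.9%). As a share 3 to 9 held fewer (23.8% to 28.1%). At a start 8 to 14 genes were higher (25.8% to 39.3%) and 3 to 5 lower (19.3% to 31.5%). Of the 14 called regions 5 were called in every such fit.

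Single genes changed sign in 7 cases. With equal numbers of summits WNT2B came to 17.8 and WNT8A to 4.09. Within 1 kb of an end ROR2 came to 15.0 and WNT3 to 21.5. With starts alone WNT5B came to 13.9, WNT3 to 21.5 and WNT9B to 39.5.

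With replicate number as a block, limma called 6 regions higher (10.4% of shared regions) and 8 lower (12.9%). Within each replicate number 9 genes were higher (25.3% of protein-coding genes) and 15 lower (29.4%) near an end. The block removed the call of the region 111836 bp inside ROR2 (adjusted p = 0.0525) and no other call among the 14.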
